A study of Mus musculus with 19 samples.

Results

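Genes that mark subsets of dendritic cells were followed in bulk RNA sequencing of mouse liver. The set holds 9 genes chosen by symbol, namely Xcr1, Clec9a, Flt3, Cd209a, Itgae, Batf3, Zbtb46, Irf8 and Ccr7, out of 35498 genes to which the deposited transcript estimates were summed. All 9 were found, and 8 of them were among the 13594 genes with enough reads for the test across all genes; Itgae was not. The 19 libraries came from livers of C57BL/6J males (the genotype field reads C57Bl/J6) at 24 weeks and fell into 4 groups: WSD+beta-Glucan (4 libraries), WSD (5), CTRL+beta-Glucan (5) and CTRL (5). No group carries a transgene or an altered allele in the labels, and WSD is not spelled out there. The series title concerns oat beta-glucan, a soluble cereal fibre, in the diet and the progression of fatty liver disease, so the comparisons ask how WSD changed each gene, with and without beta-glucan, and how beta-glucan changed it on either background. No label says that the libraries of a group came from separate animals, so each p-value rests on the scatter of the libraries at hand, which may be technical.

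Dendritic cells take up antigen in tissues and carry it to T cells. Conventional dendritic cells of type 1 (cDC1) depend on the transcription factors Irf8 and Batf3 and carry the receptors Xcr1 and Clec9a, with which they meet killer T cells and dead cells, while those of type 2 (cDC2) include cells with the lectin Cd209a. Both arise from precursors that need the receptor Flt3, both express the factor Zbtb46, and both raise the chemokine receptor Ccr7 when they mature and leave for the lymph node. None of these genes is used by dendritic cells alone, and in bulk tissue fewer cells of a type and less RNA per cell cannot be told apart.

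Read numbers were low for most of the genes. Between 17253823 and 23450232 reads were assigned per library, yet over all 19 libraries Xcr1 had 125 reads, Itgae 126, Cd209a 148, Flt3 255, Ccr7 331, Batf3 524, Clec9a 788, Zbtb46 1707 and Irf8 3426. Irf8, Zbtb46 and Clec9a had at least 10 reads in every library, whereas Itgae stayed under 10 reads in 16 libraries, Cd209a in 14 and Xcr1 in 12. Levels below are in CPM (reads scaled to a common library size), as mean ± SD, and log2 fold changes are from edgeR with their SE. On the second principal component of all tested genes, with 6.68% of the variance, WSD+beta-Glucan replicate 1 scored 18.2 and CTRL+beta-Glucan replicates 1 and 2 scored 51.8 and 18.2, against -21.6 to 10.3 in the other libraries. These 3 libraries, titled 37, 39 and 40, were left out together in an alternative fit. Of them only CTRL+beta-Glucan replicate 1, at 51.8, lay far from all other libraries on this component. Results that change without these 3 libraries are given with that value. Liver identity was plain in every group, with 8 hepatocyte markers summing to at least 47600 CPM in each library.

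In WSD livers, 7 of the 8 tested genes were higher than in CTRL livers and none was lower, where 26.0% of all tested genes were called higher and 27.1% lower. Those that rose were Irf8, Batf3, Xcr1, Clec9a, Flt3, Cd209a and Ccr7, with log2 fold changes of 1.27 to 3.22, and Zbtb46 did not pass the threshold. For 6 of the 8, all but Cd209a and Zbtb46, every WSD library lay above every CTRL library, as for 20.0% of all tested genes, while 18.4% had every WSD library below. The median over the 8 genes was 1.76, beside -0.04 over all tested genes. The same 7 genes were called higher in each of the 19 fits that left out a library. A fit restricted to the libraries of both groups called 5, since Xcr1 and Cd209a then had too few reads to be tested.

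**Figure D1:**
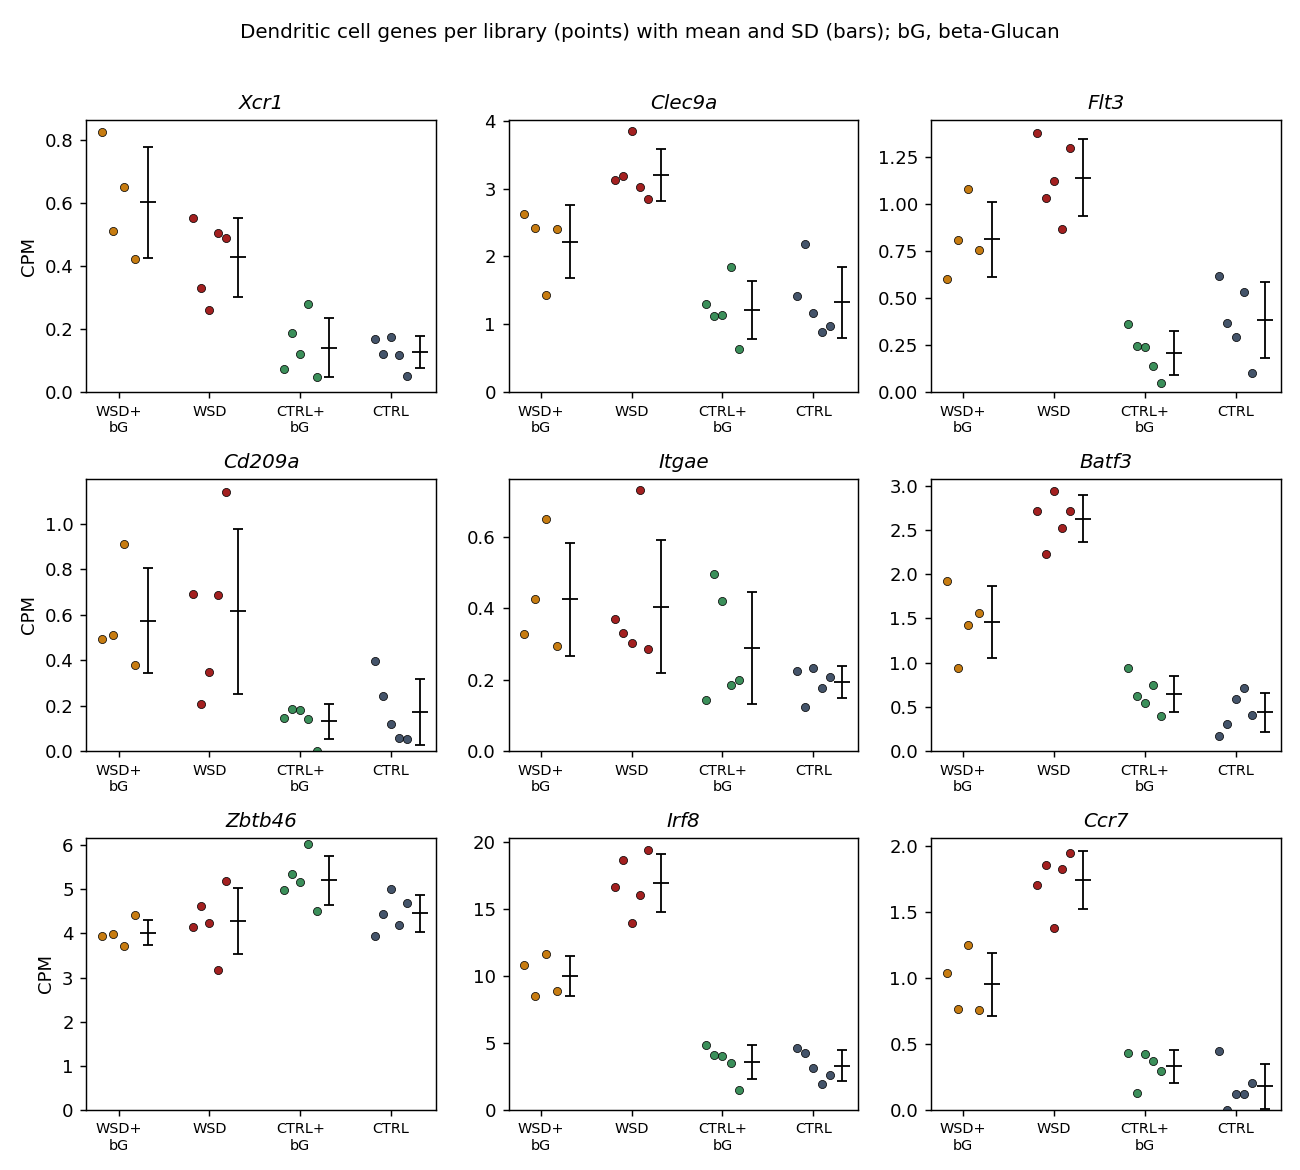
CPM (y axis, from 0, with its own scale in each panel) of the 9 genes by group (x axis); each point is a library and the bars give mean and SD. For Irf8, Batf3, Clec9a and Ccr7 every WSD library lies above every library of the other groups, and for Zbtb46 the WSD and CTRL libraries overlap.

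Of the transcription factors, Irf8 (ENSMUSG00000041515) had the most reads. This factor of the interferon regulatory family is needed for cDC1 and is also active in monocytes and B cells. Irf8 stood at 10.8, 8.49, 11.6 and 8.89 CPM in WSD+beta-Glucan livers, at 16.6, 18.6, 13.9, 16.0 and 19.4 CPM in WSD livers, at 4.83, 4.10, 4.02, 3.48 and 1.48 CPM in CTRL+beta-Glucan livers, and at 4.61, 4.27, 3.15, 1.89 and 2.58 CPM in CTRL livers. The groups formed 3 steps with no overlap, WSD on top, WSD+beta-Glucan between, and both CTRL groups below, mixed with each other. WSD livers exceeded CTRL livers by 2.36 ± 0.24 on the log2 scale (edgeR adjusted p = 1.80e-07), and WSD+beta-Glucan livers exceeded CTRL+beta-Glucan livers by 1.48 ± 0.25 (edgeR adjusted p = 1.61e-04). The annotated coding transcript ENSMUST00000047737 carried 94.4% of the Irf8 TPM (abundance scaled by transcript length) over all libraries.

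Batf3 (ENSMUSG00000026630) encodes the leucine zipper factor that partners Irf8 in cDC1. Batf3 stood at 1.92, 0.934, 1.43 and 1.56 CPM in WSD+beta-Glucan livers, at 2.72, 2.23, 2.94, 2.52 and 2.72 CPM in WSD livers, at 0.938, 0.621, 0.541, 0.742 and 0.396 CPM in CTRL+beta-Glucan livers, and at 0.169, 0.305, 0.583, 0.71 and 0.412 CPM in CTRL livers. Batf3 reads came to 127 over the WSD+beta-Glucan livers, 303 over WSD, 56 over CTRL+beta-Glucan and 38 over CTRL livers. In 5 libraries it had under 10 reads. All WSD libraries were above all others, and the lowest WSD+beta-Glucan library lay just under the highest CTRL+beta-Glucan library. The log2 fold change was 2.58 ± 0.29 for WSD against CTRL (edgeR adjusted p = 6.05e-07) and 1.18 ± 0.30 for WSD+beta-Glucan against CTRL+beta-Glucan (edgeR adjusted p = 0.00504). Over all libraries, 64.3% of the Batf3 TPM came from the coding transcript ENSMUST00000027943, and the rest was assigned to transcripts annotated as non-coding or with a retained intron.

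The RefSeq promoter windows of these factors, which rose together, are shown because both are rich in G and C, which the choice of genes did not use. Each covers 250 bases before to 50 bases after the annotated start on GRCm38.p6, the earlier mouse build of that table, and CpG dinucleotides are in capitals. Irf8 lies at chr8:120736108-120736407 on the plus strand, and Batf3 at chr1:191098164-191098463 on the plus strand. No Batf3 transcript of the GENCODE M21 annotation starts at the start used for its window, chr1:191098414. The Batf3 transcript with the most reads, ENSMUST00000027943, starts at chr1:191098325, inside the window.
Irf8: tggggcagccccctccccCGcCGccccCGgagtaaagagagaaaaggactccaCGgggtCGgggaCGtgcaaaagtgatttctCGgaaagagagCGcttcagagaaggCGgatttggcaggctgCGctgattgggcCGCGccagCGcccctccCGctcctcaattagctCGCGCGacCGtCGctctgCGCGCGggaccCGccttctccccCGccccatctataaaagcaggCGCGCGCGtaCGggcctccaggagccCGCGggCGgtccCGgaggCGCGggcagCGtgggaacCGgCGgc
Batf3: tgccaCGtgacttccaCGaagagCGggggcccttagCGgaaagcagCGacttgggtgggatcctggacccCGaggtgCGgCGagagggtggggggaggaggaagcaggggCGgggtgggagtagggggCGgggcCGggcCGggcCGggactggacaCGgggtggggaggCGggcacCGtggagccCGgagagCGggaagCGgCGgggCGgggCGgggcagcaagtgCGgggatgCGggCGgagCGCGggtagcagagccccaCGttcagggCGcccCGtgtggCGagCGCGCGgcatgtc
The Irf8 window was 70.0% G and C with 38 CpG, and the Batf3 window 75.7% with 34 CpG, against medians of 52.7% and 7 CpG over all 32851 windows. The window of Flt3 was 61.0% G and C with 18 CpG, whereas those of the surface receptors Xcr1 (40.0%, 6 CpG), Clec9a (37.0%, 1 CpG) and Cd209a (44.0%, 1 CpG) were poorer in both. The window of the factor Zbtb46 (50.7%, 1 CpG) and a further Irf8 window (54.7%, 8 CpG) were not rich in G and C in this way, and the transcripts at their starts had 0 and 1.6 reads in all. Windows were matched for 7 of the 9 genes.

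Zbtb46 (ENSMUSG00000027583), a zinc finger factor of conventional dendritic cells and their committed precursors that endothelial cells also express, differed from the other factors. It stood at 3.95, 3.99, 3.72 and 4.42 CPM in WSD+beta-Glucan livers, at 4.15, 4.62, 4.24, 3.16 and 5.20 CPM in WSD livers, at 4.98, 5.34, 5.17, 6.03 and 4.5 CPM in CTRL+beta-Glucan livers, and at 3.94, 4.45, 5.01, 4.2 and 4.69 CPM in CTRL livers. The WSD and CTRL libraries overlapped, with a log2 fold change of -0.06 ± 0.13, a 95% interval of -0.33 to 0.21 and an edgeR adjusted p of 0.727. In TPM, which was not tested, the mean was higher in WSD (1.5 ± 0.311) than in CTRL livers (1.19 ± 0.129), and the ranges also overlapped. The deposited TPM carry no TMM scaling. The scaled fit with length offsets gave a log2 fold change of -0.17 for WSD against CTRL (edgeR adjusted p = 0.304). In CPM, the WSD+beta-Glucan libraries all lay under the CTRL+beta-Glucan libraries, by -0.37 ± 0.14 on the log2 scale with an edgeR adjusted p of 0.0427. That call was lost in 12 of 26 alternative settings, with adjusted p between 0.0175 and 0.144 over the settings. Among the 12 were the fits without WSD+beta-Glucan replicate 1, 2 or 3, and without CTRL+beta-Glucan replicate 1, 2, 3 or 4. The fits without WSD replicate 2 or 3 and without the 3 libraries titled 37, 39 and 40 (edgeR adjusted p = 0.144) also lost it.

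Zbtb46 reads were split by the authors' estimates between a longer and a shorter coding transcript, with 62.7% and 36.6% of the gene's TPM over all libraries. The longer transcript's share ran from 63.1% to 69.5% in WSD+beta-Glucan livers, from 59.5% to 83.4% in WSD livers, from 40.9% to 69.2% in CTRL+beta-Glucan livers and from 46.4% to 67.8% in CTRL livers. These ranges overlapped, and the split was looked at after the gene's values were known, so it is given as a description.

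The chemokine receptor Xcr1 (ENSMUSG00000060509), which is largely confined to cDC1 in mice, had the fewest reads. It had 15, 12, 15 and 10 reads in WSD+beta-Glucan livers, 12, 8, 6, 11 and 12 reads in WSD livers, 1, 3, 2, 6 and 1 reads in CTRL+beta-Glucan livers, and 3, 2, 3, 2 and 1 reads in CTRL livers. In CPM, the libraries of each WSD group lay above those of its own CTRL counterpart, at 0.601 ± 0.176 in WSD+beta-Glucan, 0.427 ± 0.125 in WSD, 0.141 ± 0.0928 in CTRL+beta-Glucan and 0.127 ± 0.0496 in CTRL livers. The log2 fold change was 1.71 ± 0.43 for WSD against CTRL (edgeR adjusted p = 0.00226) and 1.99 ± 0.42 for WSD+beta-Glucan against CTRL+beta-Glucan (edgeR adjusted p = 0.00122).

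Clec9a (ENSMUSG00000046080), the lectin with which cDC1 bind exposed actin of dead cells, was better covered. It stood at 2.63, 2.42, 1.43 and 2.40 CPM in WSD+beta-Glucan livers, at 3.13, 3.18, 3.85, 3.02 and 2.85 CPM in WSD livers, at 1.30, 1.12, 1.14, 1.85 and 0.643 CPM in CTRL+beta-Glucan livers, and at 1.41, 2.19, 1.17, 0.887 and 0.979 CPM in CTRL livers. Every WSD library exceeded every library of the other groups, while WSD+beta-Glucan replicate 3 fell within the range of the CTRL+beta-Glucan livers. WSD exceeded CTRL by 1.27 ± 0.26 on the log2 scale (edgeR adjusted p = 3.60e-04). WSD+beta-Glucan exceeded CTRL+beta-Glucan by 0.86 ± 0.28 (edgeR adjusted p = 0.0203). That call was lost without WSD+beta-Glucan replicate 1 (edgeR adjusted p = 0.0601) and without replicate 2 (0.0531). It was also lost without the 3 libraries titled 37, 39 and 40 (0.78, edgeR adjusted p = 0.122).

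Flt3 (ENSMUSG00000042817) encodes the receptor for the growth factor that expands dendritic cell precursors. It had 11, 19, 25 and 18 reads in WSD+beta-Glucan livers, 30, 25, 26, 19 and 32 reads in WSD livers, 5, 4, 4, 3 and 1 reads in CTRL+beta-Glucan livers, and 11, 6, 5, 9 and 2 reads in CTRL livers. In CPM the ranges of the WSD groups and their CTRL counterparts did not overlap, and the log2 fold changes were 1.57 ± 0.36 for WSD against CTRL (edgeR adjusted p = 0.00122) and 2.02 ± 0.43 for WSD+beta-Glucan against CTRL+beta-Glucan (edgeR adjusted p = 0.00121). Its ligand gene Flt3l averaged 8.17 ± 0.704 CPM in WSD and 6.78 ± 1.11 CPM in CTRL livers, a log2 fold change of 0.27 ± 0.12 that did not pass the threshold (edgeR adjusted p = 0.0623). Xcl1, which encodes the ligand of Xcr1, had too few reads for the test, with 34 reads over the WSD+beta-Glucan livers, 39 over the WSD livers, 7 over the CTRL+beta-Glucan livers and 8 over the CTRL livers.

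Cd209a (ENSMUSG00000031494), a C-type lectin of cDC2 and of some monocyte-derived cells, varied widely within the WSD group. It had 9, 12, 21 and 9 reads in WSD+beta-Glucan livers, 15, 5, 8, 15 and 28 reads in WSD livers, 2, 3, 3, 3 and 0 reads in CTRL+beta-Glucan livers, and 7, 4, 2, 1 and 1 reads in CTRL livers. The WSD and CTRL ranges overlapped, and the log2 fold change was 1.80 ± 0.56 (edgeR adjusted p = 0.0109). The WSD+beta-Glucan and CTRL+beta-Glucan ranges did not overlap, with a log2 fold change of 2.14 ± 0.62 (edgeR adjusted p = 0.0118). The count of 0 in CTRL+beta-Glucan replicate 5 allows up to 3 reads, or 0.148 CPM, by counting error alone.

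The close relatives of Cd209a can share reads with it, so how the authors' estimates divided such reads bears on these values. Cd209c, the only other family member tested, averaged 0.719 ± 0.0676 CPM in WSD+beta-Glucan, 0.879 ± 0.489 in WSD, 1.13 ± 0.593 in CTRL+beta-Glucan and 0.640 ± 0.280 CPM in CTRL livers, and passed no comparison (0.45 ± 0.39 for WSD against CTRL, edgeR adjusted p = 0.346). Cd209b had 7 reads over the WSD+beta-Glucan livers, 7 over the WSD livers, 21 over the CTRL+beta-Glucan livers and 17 over the CTRL livers. Cd209d, Cd209e, Cd209f and Cd209g had at most 11 reads in any group.

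The RefSeq window of Cd209a on GRCm38.p6, at chr8:3748935-3749234 on the minus strand, is shown because it alone among the windows at a start with reads held a searched motif. A composite of the kind bound by ETS factors together with interferon regulatory factors, GGAA and GAAA with 2 bases between them, lay in it on the opposite strand, with its outermost base 9 bases before the start, and is in capitals.
Cd209a: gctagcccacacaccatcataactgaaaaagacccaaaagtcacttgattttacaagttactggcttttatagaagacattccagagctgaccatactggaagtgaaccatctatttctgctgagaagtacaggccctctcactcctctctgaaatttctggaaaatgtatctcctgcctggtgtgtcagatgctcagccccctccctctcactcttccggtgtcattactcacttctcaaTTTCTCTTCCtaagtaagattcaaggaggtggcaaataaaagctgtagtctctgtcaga
Each motif was searched on both strands, and 2.72% of all 32851 windows held this composite, 3.44% the interferon regulatory factor repeat (GAAA, 2 bases, GAAA), 7.81% the AP-1 motif TGANTCA and 3.20% the PU.1-type ETS motif GAGGAAGT. The composite and the repeat end in the same letters and can overlap. The Zbtb46 window, placed at a start whose transcript had no reads, held an AP-1 match, and the Irf8, Batf3, Clec9a, Flt3 and Xcr1 windows held none of these letters.

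Itgae (ENSMUSG00000005947) encodes the integrin chain CD103, found on cDC1 of barrier tissues and on resident T cells. It had 6, 10, 15 and 7 reads in WSD+beta-Glucan livers, 8, 8, 7, 16 and 7 reads in WSD livers, 2, 8, 7, 4 and 4 reads in CTRL+beta-Glucan livers, and 4, 2, 4, 3 and 4 reads in CTRL livers. All WSD libraries lay above all CTRL libraries, by 0.73 on the log2 CPM scale (2 counts added), with p = 0.00794 in a two-sided exact permutation test over libraries, the smallest that 5 against 5 allow, and 0.0317 after adjustment over the 4 comparisons of this gene. WSD+beta-Glucan and CTRL+beta-Glucan livers overlapped and differed by 0.48 (exact permutation p = 0.206, adjusted 0.402). With no filter on low reads, the edgeR adjusted p over all genes was 0.0791 for WSD against CTRL. Its partner chain Itgb7, which also pairs with another integrin chain, rose by 1.68 ± 0.23 in WSD livers (edgeR adjusted p = 6.47e-06). Haspin, a kinase gene of dividing cells, lies within Itgae on the opposite strand in the GENCODE M21 annotation and had 28 reads over the WSD+beta-Glucan livers, 64 over the WSD livers, 16 over the CTRL+beta-Glucan livers and 12 over the CTRL livers; the kit keeps strand, but whether the quantification used it is not given in the sources used here.

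Ccr7 (ENSMUSG00000037944), the receptor that guides mature dendritic cells and naive T cells to lymph nodes, had the highest fold change of the set in WSD livers. It had 19, 18, 29 and 18 reads in WSD+beta-Glucan livers, 37, 45, 32, 40 and 48 reads in WSD livers, 6, 2, 7, 8 and 6 reads in CTRL+beta-Glucan livers, and 8, 0, 2, 2 and 4 reads in CTRL livers. In CPM, WSD, WSD+beta-Glucan and the CTRL groups formed 3 steps without overlap, as for Irf8. The log2 fold change was 3.22 ± 0.42 for WSD against CTRL (edgeR adjusted p = 2.78e-06), where the CTRL livers held only 16 reads and CTRL replicate 2 had none, which allows up to 0.183 CPM by counting error. WSD+beta-Glucan exceeded CTRL+beta-Glucan by 1.52 ± 0.41 (edgeR adjusted p = 0.00744), and without the 3 libraries titled 37, 39 and 40 by 1.35 (edgeR adjusted p = 0.0551). Of its ligand genes, Ccl19 rose by 2.72 ± 0.27 in WSD livers (edgeR adjusted p = 1.44e-07), and that symbol belongs to 2 genes of the annotation, of which the more read is given. Ccl21a, another ligand gene whose symbol also belongs to 2 genes, did not pass the threshold, at 0.675 ± 0.591 CPM (78 reads) in WSD and 1.04 ± 0.665 CPM (92 reads) in CTRL livers.

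With beta-glucan in both groups, 7 of the 8 tested genes were higher in WSD+beta-Glucan than in CTRL+beta-Glucan livers and 1, Zbtb46, was lower, where 19.1% of all tested genes were called higher and 15.2% lower. The 7 were those higher in WSD against CTRL, with log2 fold changes of 0.86 to 2.14. The libraries did not overlap for Irf8, Xcr1, Flt3, Cd209a and Ccr7 in the higher direction and for Zbtb46 in the lower, where 14.4% and 10.7% of all tested genes did not. Between 6 and 7 were called higher when a library was left out, and between 5 and 7 over all 26 alternative settings. Without the 3 libraries titled 37, 39 and 40, Clec9a (edgeR adjusted p = 0.122) and Ccr7 (0.0551) lost their calls.

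**Figure D2:**
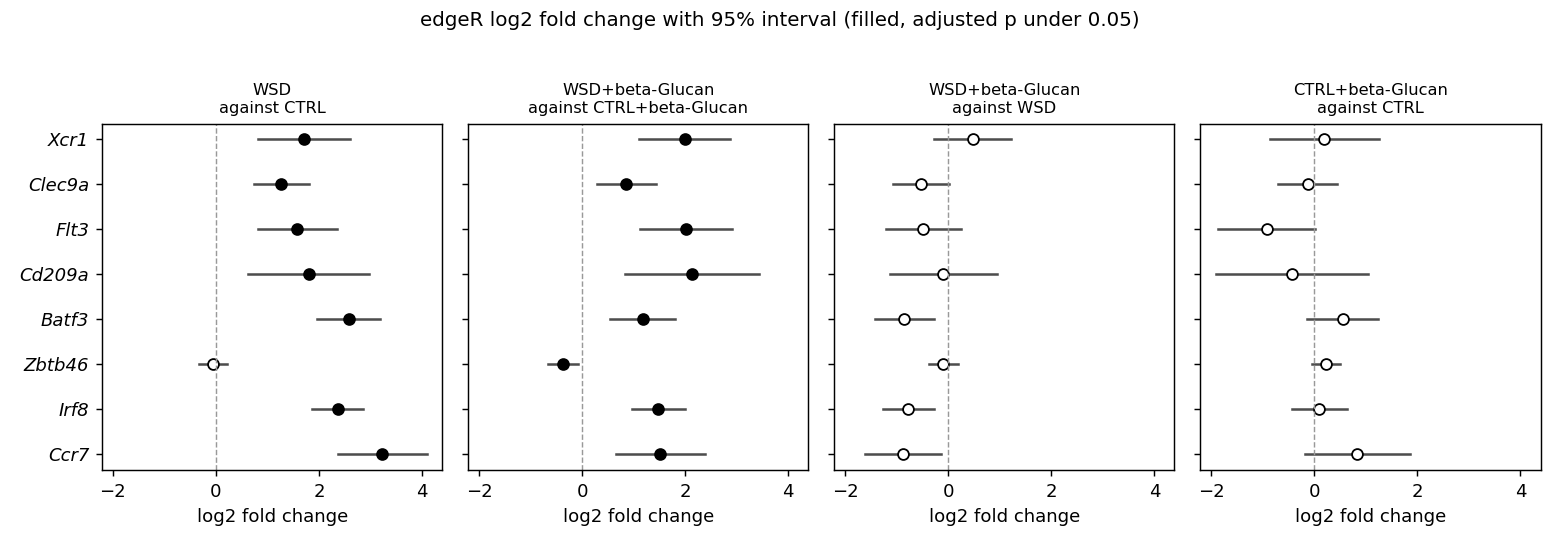
edgeR log2 fold change (x axis) of the 8 tested genes (y axis) in 4 comparisons; lines are 95% intervals, and filled points have an adjusted p under 0.05. In both comparisons of WSD groups with CTRL groups 7 genes lie to the right of 0, and in both comparisons for beta-glucan all points are open.

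In WSD+beta-Glucan against WSD livers, none of the 8 tested genes passed the threshold, nor did Itgae pass its own test, where 0.0883% of all tested genes were called higher and 0.302% lower. At an unadjusted p under 0.05, Irf8, Batf3 and Ccr7 were lower, where 7.89% of all tested genes were lower and 7.69% higher. Irf8 averaged 9.92 ± 1.47 CPM in WSD+beta-Glucan and 16.9 ± 2.18 CPM in WSD livers, a log2 fold change of -0.77 ± 0.23 (unadjusted p = 0.00370, edgeR adjusted p = 0.129). Batf3 averaged 1.46 ± 0.408 CPM in WSD+beta-Glucan and 2.63 ± 0.268 CPM in WSD livers, with -0.85 ± 0.27 (unadjusted p = 0.00535, edgeR adjusted p = 0.140). Ccr7 averaged 0.955 ± 0.240 CPM in WSD+beta-Glucan and 1.75 ± 0.220 CPM in WSD livers, with -0.87 ± 0.36 (unadjusted p = 0.0240, edgeR adjusted p = 0.247).

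These 3 genes and Clec9a had no overlap between WSD+beta-Glucan and WSD libraries, as did 4.83% of all tested genes in the lower and 2.59% in the higher direction. Clec9a differed by -0.53 ± 0.26 (edgeR adjusted p = 0.329) and Flt3 by -0.48 ± 0.35 (edgeR adjusted p = 0.522). Irf8 and Batf3 were called lower by DESeq2 (adjusted p = 0.0463 and 0.0299), by limma-voom (0.0201 and 0.0283) and by edgeR on the libraries of both groups alone (0.00395 and 0.0415), so their calls differed between these settings. Calls over all genes rose there too. DESeq2 called 327 genes lower and 91 higher, limma-voom 366 and 61, and edgeR on those libraries alone 411 and 46. The main fit called 41 lower and 12 higher. Over all 26 alternative settings the edgeR, DESeq2 or limma adjusted p ran from 0.00395 to 0.419 for Irf8 and from 0.0283 to 0.389 for Batf3, and both values stayed below 0.

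Xcr1 was the exception in direction, at 0.48 ± 0.36 higher in WSD+beta-Glucan than in WSD livers with a 95% interval of -0.27 to 1.22, and it did not pass the test (edgeR adjusted p = 0.534). Cd209a (-0.10 ± 0.50), Zbtb46 (-0.09 ± 0.14) and Itgae (0.08, exact permutation p = 0.762) lay near 0, with a 95% interval of -1.13 to 0.94 for Cd209a and -0.37 to 0.20 for Zbtb46. Xcr1 reads came to 17.5% to 45.5% of the Clec9a reads in WSD+beta-Glucan livers and to 6.74% to 17.6% in WSD livers. They came to 27.0% to 54.5% of the Batf3 reads in WSD+beta-Glucan livers and to 8.82% to 20.3% in WSD livers, and to 4.74% to 7.65% of the Irf8 reads in WSD+beta-Glucan livers and to 1.78% to 3.33% in WSD livers. The ratios to Batf3 and Irf8 did not overlap between the groups, and that to Clec9a overlapped slightly. Clec9a, Batf3 and Irf8 were each lower in WSD+beta-Glucan livers without overlap, which by itself raises these ratios. The ratios rest on 6 to 15 Xcr1 reads per library and were chosen after the values were seen, so no test is given.

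**Figure D3:**
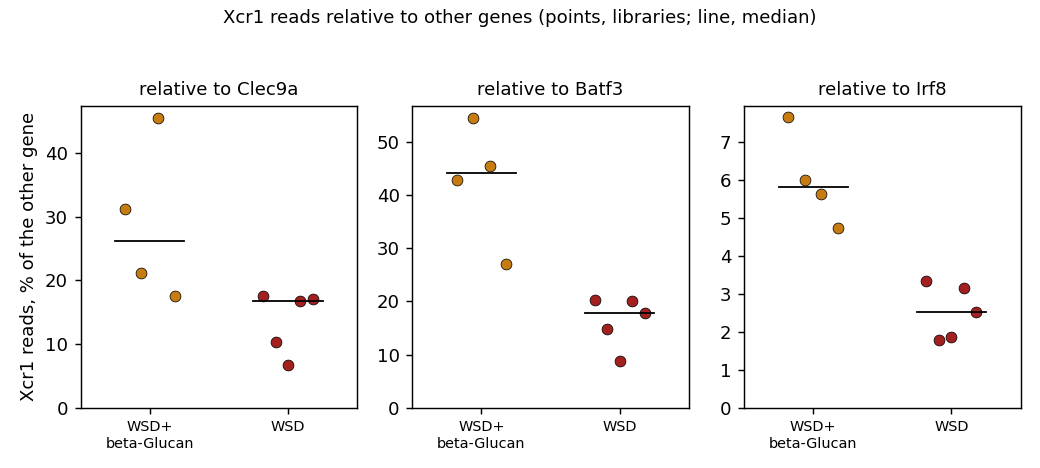
Xcr1 reads as a percentage of the reads of Clec9a, Batf3 or Irf8 (y axis, from 0) in WSD+beta-Glucan and WSD livers (x axis); points are libraries and lines are medians. Relative to Irf8, the WSD+beta-Glucan libraries lie at 4.74% to 7.65% and the WSD libraries at 1.78% to 3.33%.

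In CTRL+beta-Glucan against CTRL livers, none of the 8 tested genes was called, where 0.00736% of all tested genes were higher and 0.0% lower; at an unadjusted p under 0.05 these shares were 2.86% and 2.84%, and no gene of the set was among them. The log2 fold changes ran from -0.92 ± 0.45 for Flt3 (95% interval -1.87 to 0.02) to 0.83 ± 0.49 for Ccr7 (-0.18 to 1.85), and the 2 groups overlapped for each of the 8 genes, whereas 0.28% of all tested genes had no overlap in the higher and 0.206% in the lower direction. DESeq2 and limma-voom called none of them either. The difference between the beta-glucan effects on the WSD and CTRL backgrounds was also tested, and none of the 8 genes passed, where 0.0% of tested genes were called higher and 0.00736% lower. The values at an unadjusted p under 0.05 were -1.40 ± 0.43 for Batf3 (edgeR adjusted p = 0.210), -1.70 ± 0.60 for Ccr7 (edgeR adjusted p = 0.261) and -0.87 ± 0.34 for Irf8 (edgeR adjusted p = 0.293), where 6.90% of all tested genes were higher and 6.82% lower at that level. The comparisons share libraries, so their values are not independent of each other.

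Levels between genes were compared per length, in TPM. In WSD livers Irf8 led with 9.45 ± 1.92 TPM, followed by Batf3 with 7.35 ± 0.943, and their ranges overlapped. All Batf3 libraries there lay above all those of Clec9a, at 1.73 ± 0.236, which overlapped with Zbtb46 at 1.5 ± 0.311 and Ccr7 at 1.32 ± 0.215 TPM. Cd209a at 0.862 ± 0.622 and Flt3 at 0.467 ± 0.0945 TPM came next, and Xcr1 at 0.177 ± 0.0518 and Itgae at 0.147 ± 0.0606 TPM overlapped at the bottom. In CTRL livers Irf8 at 1.41 ± 0.519, Zbtb46 at 1.19 ± 0.129 and Batf3 at 0.841 ± 0.374 TPM overlapped in turn, and Batf3 overlapped Clec9a at 0.547 ± 0.141 TPM. Batf3 thus had a higher mean than Zbtb46 in both WSD groups and a lower one in both CTRL groups.

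Wider lists of dendritic cell genes were counted in the same fit. For all these lists, the shares over all tested genes in WSD against CTRL livers were 26.0% called higher and 27.1% lower. Of 14 tested further cDC1 genes, 10 were higher and 2 lower in WSD than in CTRL livers, with a median log2 fold change of 1.35. Rab7b, a small GTPase of endosomes, rose by 3.66 ± 0.24, Cxcl9, a chemokine that draws T cells and is also made by macrophages, by 3.53 ± 0.24, and Wdfy4, which cDC1 need for cross-presentation, by 2.30 ± 0.22 (edgeR adjusted p = 1.17e-09, 1.29e-09 and 5.97e-08). The 2 that fell were the factors Id2 (-0.63 ± 0.16) and Nfil3 (-1.44 ± 0.18), which were at 136 ± 38.8 and 67.6 ± 15.0 CPM in CTRL livers and made most of the list's summed CPM.

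Among 11 tested further cDC2 genes, 8 were higher and 1 lower in WSD livers (median 1.85), led by Sirpa, an inhibitory receptor also on macrophages, at 3.37 ± 0.22, the lectin Clec12a at 3.16 ± 0.27 and the NF-kB subunit Relb at 2.60 ± 0.24. Of 11 further genes of conventional dendritic cells, 7 were higher and none lower (median 1.79), with Itgax, the CD11c chain that many macrophages also carry, at 5.35 ± 0.29. Among 14 genes of mature dendritic cells 12 were higher and 2 lower (median 2.24). The chemokine Ccl22 had 223 reads over the WSD livers and 2 over the CTRL livers (edgeR adjusted p = 4.49e-08). Cd83, a maturation marker, rose by 2.86 ± 0.20, whereas Socs2, 1 of the 2 lower genes, fell by -1.76 ± 0.55 (edgeR adjusted p = 0.013). All 8 tested genes of plasmacytoid dendritic cells were higher (median 2.08), but Ly6d, a surface antigen also found outside these cells, stood at 200 ± 57.8 CPM in WSD livers while the defining Siglech averaged 0.377 ± 0.202 CPM and was not tested.

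In WSD+beta-Glucan against WSD livers, 1 gene was called in each of 3 of these lists, all lower. Over all tested genes 0.302% were called lower and 0.0883% higher. The 3 were Rab7b by -1.10 ± 0.21 (edgeR adjusted p = 0.0276), Itgax by -1.28 ± 0.23 (edgeR adjusted p = 0.0261) and Cd83 by -0.97 ± 0.19 (edgeR adjusted p = 0.0276). The medians were -0.19 for the further cDC1 genes, -0.35 for cDC2, -0.15 for conventional dendritic cells, -0.60 for mature dendritic cells and -0.44 for plasmacytoid cells, beside 0.01 over all tested genes.

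Markers of other cell types were counted in WSD against CTRL livers, where 26.0% of all tested genes were called higher. Of 12 monocyte and macrophage markers 11 were higher in WSD livers (median 2.69), and their summed CPM was 402 to 470 in WSD+beta-Glucan, 630 to 795 in WSD, 85.1 to 187 in CTRL+beta-Glucan and 71.1 to 185 in CTRL livers, an order of groups like that of Irf8. All 11 tested T cell markers were higher (median 1.83), with sums of 7.73 to 13.1 CPM in WSD+beta-Glucan, 7.01 to 16.3 in WSD, 2.98 to 5.19 in CTRL+beta-Glucan and 2.13 to 4.61 CPM in CTRL livers. Shares of called genes in the small B and NK cell lists lay near that background. Of the B cell markers 2 of 5 tested were higher, with sums of 6.92 to 9.43 CPM in WSD+beta-Glucan, 7.76 to 10.3 in WSD, 3.79 to 8.41 in CTRL+beta-Glucan and 2.86 to 9.34 CPM in CTRL livers. Of the NK cell markers 1 of 3 tested was higher, namely Nkg7, a granule gene of cytotoxic cells (2.84 ± 0.41), and Ncr1, which defines these cells, had 25 reads over the WSD and 2 over the CTRL livers.

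Endothelial markers were higher for 8 of 10 (median 0.80), with sums of 132 to 193 CPM in WSD+beta-Glucan, 164 to 244 in WSD, 99.5 to 155 in CTRL+beta-Glucan and 65.2 to 178 CPM in CTRL livers. All 8 tested cell cycle genes were higher (median 2.78). Of 8 hepatocyte markers 6 were lower (median -0.77), where 27.1% of all tested genes were called lower. Among the 6 was Alb at 38600 ± 4340 CPM in WSD and 83700 ± 11400 CPM in CTRL livers. Several set genes are used by the cells these lists mark, and the part of those cells in the set's values was not tested.

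**Figure D4:**
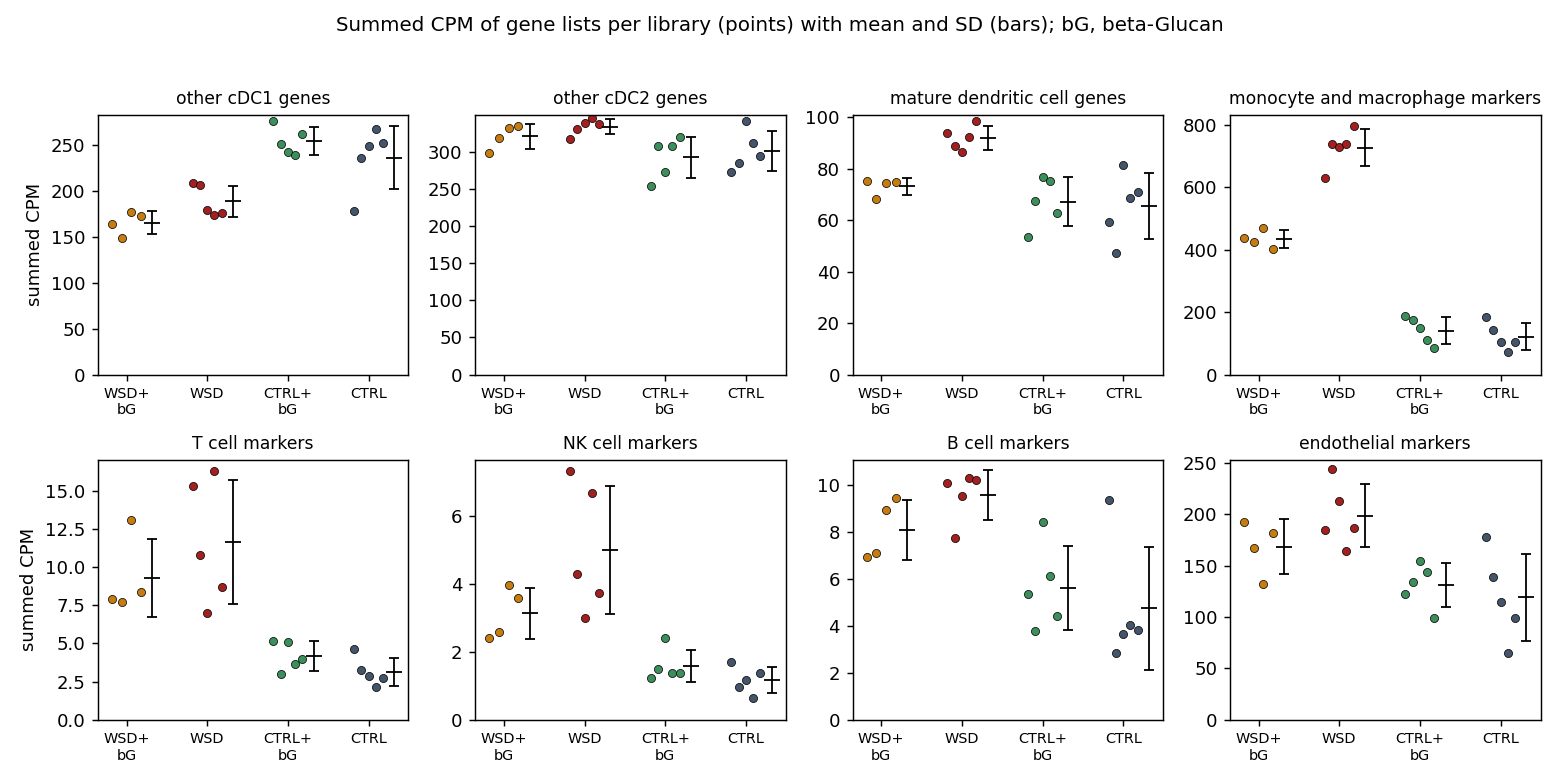
Summed CPM (y axis, from 0) of 8 gene lists by group (x axis); points are libraries and bars give mean and SD. The monocyte and macrophage sum is highest in WSD (630 to 795) and lower in WSD+beta-Glucan livers (402 to 470). The cDC1 sum, carried mostly by Id2 and Nfil3, has a lower mean in each WSD group than in its CTRL counterpart. For that sum the WSD (174 to 208) and CTRL (178 to 267) libraries overlap.

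For each tested gene of the set, the genes whose centred log2 CPM over the 19 libraries differed least from its own were looked up among 10476 protein-coding genes above 2 CPM. Irf8 was nearest to Hcls1, an actin regulator of blood cells, with a mean absolute difference of 0.10 on the log2 scale, then Cmklr1, a chemoattractant receptor, at 0.13 and Sdc3, a proteoglycan, at 0.16. Clec9a was nearest to Cd38 (0.19), an ectoenzyme of many cell types, Tmc8 (0.22) and Plvap (0.23), an endothelial gene. Zbtb46 was nearest to Sbno2, Pes1 and Bcl7a (0.11 each). For the other genes the nearest differed by 0.27 to 0.34: Gab2, Rab31 and Akna for Flt3, Cbx6, Mgst3 and Rhoj for Xcr1, Igfbp7 and Rhoj for Cd209a, Abi3, Ccdc88b and Dok2 for Batf3, and Emp3, Fgr and Rassf4 for Ccr7. Irf8, Zbtb46 and Clec9a, with the most reads of the set, had the smallest differences. Among the other genes the order did not follow reads, with 0.30 for Batf3 (524 reads) and 0.28 for Xcr1 (125 reads). Counting noise at low reads can add to these differences, and its part was not tested.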

How the data were processed

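Stranded poly(A) RNA libraries (TruSeq) made from liver total RNA (19 libraries) were quantified with Salmon 1.10.1 on GRCm39, per the submitters' processing notes, which also name DESeq2 1.38.3 without a role. Per the file headers, the authors deposited, for each transcript and library, estimated counts, TPM and, as another unit, an effective length. The transcript set used is not given in the sources used here. Of 116546 transcripts, 115977 were matched by identifier to GENCODE M21; the other 569 held at most 0.1095% of a library's reads and were left out. The deposited estimated counts were summed per gene and rounded. The deposited TPM were summed per gene and used for levels between genes and shares of transcripts, and the deposited effective lengths entered 1 alternative fit.

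Groups came from the labels; replicates are numbered in order of deposition. edgeR 4.0.16 (R 4.3.3) was fitted to all 19 libraries, with filterByExpr, TMM scaling, robust quasi-likelihood F tests and Benjamini-Hochberg adjustment over 13594 genes within each of 5 contrasts (threshold 0.05). The SE is the absolute log2 fold change divided by the square root of F. CPM use the TMM-scaled library sizes. Itgae, removed by the filter, was tested by two-sided exact permutation (scipy 1.17.1) on log2 CPM with a prior count of 2. The 95% intervals come from the edgeR SE and include the scatter between libraries; floors of 3 counts cover counting error only. The scripts were tested on simulated data. The genes changed there all had more expected reads than most set genes had in CTRL livers, so that test does not cover genes with low reads. Alternatives were RLE scaling, no filter, DESeq2 1.42.0, limma-voom (limma 3.58.1), length offsets, only the libraries compared, and libraries left out.

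All 9 set genes are named; from each other list the 3 called genes with the smallest p per contrast, of which the text gives a selection, plus Flt3l, Xcl1 and the Cd209 family, and the 3 nearest genes by centred log2 CPM, of which 1 is not reported here. Id2, Nfil3, Itgb7, Ccl21a, Socs2, Haspin, Ncr1 and Siglech were named after their values were seen. The members and lists were chosen with earlier results of these data known.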

Additional observations from a re-analysis of the deposited data

Results flagged for a closer look

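In 36 checks of a gene in a group for a library far from the others, 2 libraries stood out, and chance flags about 1 in 20 such groups. Cd209a had 0.0 CPM in CTRL+beta-Glucan replicate 5, against 0.139 to 0.186 CPM in the other 4 libraries, which are counts of 2 or 3 reads. Itgae had 0.732 CPM in WSD replicate 4, from 16 reads, against 0.285 to 0.369 CPM in the other 4 WSD libraries.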

How the results depend on the processing

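No paired analysis was possible because the labels carry no replicate numbers that tie libraries of different groups. The 7 calls of higher genes in WSD against CTRL stayed within 5 to 7 over 26 settings, and none of the 9 genes changed direction there except Zbtb46, at -0.14 to 0.03 with a library left out. With any WSD or CTRL library left out, the exact permutation adjusted p of Itgae in that comparison was 0.0635. Its call was lost each time, since fewer libraries raise the smallest p. For WSD+beta-Glucan against WSD, set genes called lower were 0 in the main test, 2 with DESeq2, 2 with limma-voom and 2 with only the libraries compared, and 0 to 1 with a library left out (Irf8 without CTRL+beta-Glucan replicate 5). Over all genes, 12 were called higher there and 7 without a filter, 91 with DESeq2, 61 with limma-voom, 46 with only the libraries compared and 0 to 33 with a library left out. Of genes called lower there were 41, and 327 with DESeq2, 366 with limma-voom, 26 with length offsets, 411 with only the libraries compared and 2 to 151 with a library left out. For WSD+beta-Glucan against CTRL+beta-Glucan, the 7 higher calls stayed within 5 to 7 over 26 settings. The 1 lower call there (Zbtb46) became 0 without a filter and 0 with only the libraries compared. The count was also 0 without the 3 libraries titled 37, 39 and 40, and 0 to 1 with a library left out. Over all genes 2063 were lower, and 1330 with only the libraries compared and 1240 without those 3. For CTRL+beta-Glucan against CTRL, 1 gene was higher, and 5 with DESeq2, 0 with only the libraries compared, 2 without those 3 libraries and 0 to 2 with a library left out; 0 were lower, and 3 without those 3. For the difference between the beta-glucan effects, 0 were higher, 14 with DESeq2 and 0 to 10 with a library left out; 1 was lower, 119 with DESeq2, 2 without those 3 libraries and 0 to 71 with a library left out. Values that did not pass and changed sign were Cd209a in WSD+beta-Glucan against WSD (0.06 with limma-voom, -0.41 to 0.26 with a library left out) and, for CTRL+beta-Glucan against CTRL, Irf8 (-0.01 with length offsets, -0.15 without those 3, -0.04 to 0.31 with a library left out), Xcr1 (-0.24 to 0.43), Clec9a (-0.35 to 0.13) and Cd209a (-0.67 to 0.12). Cd209a ran from -0.22 to 0.69 for the difference, and Itgae from -0.11 to 0.27 for WSD+beta-Glucan against WSD. The cause of these changes was not tested. For Xcr1, Flt3, Cd209a and Itgae the low reads per library limit what could be detected.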
